A study of Mus musculus with 12 samples.

Results

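Iron and heme handling was described through 8 genes: Hmox1, Blvrb, Slc48a1, Fth1, Ftl1, Slc40a1, Tfrc and Slc11a1. They were taken by gene symbol from count tables of 26608 gene rows, and all 8 were among the 14254 genes that passed the filter on low counts. The counts came from 12 RNA-seq libraries of cells sorted from the lungs of C57Bl/6 mice, all exposed for 3 weeks to hypoxia with a weekly dose of SU5416, a blocker of the VEGF receptor. Interstitial macrophages (IM), which live in the lung wall and around its vessels, and nonclassical monocytes (NCM), the patrolling monocytes of the blood, were each taken from Hif1α flox/flox mice without Cre, called control here, and from Cx3cr1cre;Hif1α Δ/Δ mice, called deleted here. Each of the 4 groups had 3 libraries of about 250 cells each. No group breathed normal air and no group carried Cre without the floxed allele, so neither the exposure nor Cre alone could be compared. The Cre is driven from Cx3cr1, a gene that monocytes and many macrophages express. Libraries are named by cell type and by the number in their title (IM648, NCM661). Whether a number is an animal is not stated in the labels, and p-values therefore measure only the spread between these libraries, which may be technical.

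Macrophages take up dying red cells and free heme, and heme brought into the cytosol by Slc48a1 (the heme transporter HRG1) is opened by Hmox1, heme oxygenase 1, which releases iron, carbon monoxide and biliverdin. Blvrb, biliverdin reductase B, reduces biliverdin and flavins. Iron that is not used is stored inside ferritin shells built from a heavy chain, Fth1, and a light chain, Ftl1, or leaves the cell through ferroportin, the product of Slc40a1. Tfrc, the transferrin receptor, brings iron in from plasma, and Slc11a1 (NRAMP1) moves iron and manganese out of the phagosome. Hmox1 and the ferritins are known targets of NRF2, and Tfrc and Hmox1 have long been described as genes that HIF-1 can switch on in other cells.

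Several of these transcripts carry an iron responsive element, a hairpin bound by the iron regulatory proteins when iron is low. Binding in the 5′ UTR holds back translation and binding in the 3′ UTR protects the transcript from decay, so ferritin protein can change with no change in the RNA counted here. A search of annotated UTRs for the hairpin (a C, 5 bases, then CAGTG and any base but G as the loop, then 5 bases paired with the first 5 with G-T pairs allowed, and at least 3 of 5 pairs below the C) found it in 32 of 21877 protein-coding genes of GENCODE M21 (0.146%). Of the 8 genes, 4 held it: Slc40a1, Fth1 and Ftl1 once each in the 5′ UTR and Tfrc 4 times in the 3′ UTR. These letters were not found in the UTRs of Hmox1, Blvrb, Slc48a1 and Slc11a1. The hairpins are shown because they are the sequence feature that divides the 8 genes. They are read 5′ to 3′ on the strand of the gene in GRCm38, with the loop in capitals. The genome places of these 27 bases are chr1:45925466-45925492 on the minus strand for Slc40a1, chr19:9982733-9982759 on the plus strand for Fth1, chr7:45459780-45459806 on the minus strand for Ftl1, and chr16:32631220-32631246 and chr16:32631711-32631737 on the plus strand for the first and last sites of Tfrc.
Slc40a1: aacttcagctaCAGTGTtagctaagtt
Fth1: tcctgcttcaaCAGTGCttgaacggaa
Ftl1: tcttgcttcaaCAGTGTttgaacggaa
Tfrc, first site: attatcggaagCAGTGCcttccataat
Tfrc, last site: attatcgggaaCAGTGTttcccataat
The 2 ferritin hairpins were identical at 25 of 27 bases. The Slc40a1 hairpin matched each of them at 13 of 27 bases, and the first and last Tfrc sites matched each other at 22 of 27. The 3 genes with a 5′ UTR hairpin did not share a pattern of counts, as the values below show.

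Because the study deleted Hif1α, the 250 bases before each start were also searched, on both strands, for the 2 cores of the hypoxia response element, ACGTG and GCGTG. RefSeq promoter sequences (GRCm38.p6) were at hand for 5 of the 8 genes: Slc11a1, Blvrb, Ftl1, Tfrc and Fth1, and not for Hmox1, Slc40a1 and Slc48a1. Over all 32851 promoters, 16.6% held ACGTG, 28.2% held GCGTG and 38.6% held at least 1 of them. A core was found before at least 1 start of Blvrb, Ftl1, Tfrc and Fth1, and none was found before the start of Slc11a1. Blvrb, Tfrc and Fth1 have more than 1 start, and 1 start of Fth1 held no core. The shares over all promoters are per start, so a count per gene cannot be set beside them. The core of the antioxidant response element, TGACNNNGC, was in 10.2% of all promoters and in none of these 5. Printed below are the 100 bases before the start of the gene for Blvrb (chr7:27447878-27447977, plus strand) and Ftl1 (chr7:45459887-45459986, minus strand), both lower in every deleted library than in every control library of the same cell type. Fth1, which is not printed, was lower in the same way, with GCGTG before only 1 of its starts. Of all genes, 13.4% lay below without overlap in IM and 11.4% in NCM. Tfrc, also not printed, held a core before each of its starts, and its deleted and control libraries overlapped in both cell types. Capitals mark GCGTG, which reads CACGC where it lies on the other strand.
Blvrb: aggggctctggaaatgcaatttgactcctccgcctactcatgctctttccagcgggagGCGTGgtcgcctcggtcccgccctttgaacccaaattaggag
Ftl1: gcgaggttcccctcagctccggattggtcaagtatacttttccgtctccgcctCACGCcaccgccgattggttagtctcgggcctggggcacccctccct
A match of 5 letters is common, and it is given as a description of the sequence, not as a binding site.

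Gene counts per library ran from 5332600 to 14099509, and the 3 IM control libraries were the deepest. Reads outside annotated exons are given as a share of those reads plus gene counts. They made up 38.5% to 44.2% in IM control and 59.2% to 69.8% in IM deleted. In NCM they made up 58.1% to 66.8% (control) and 55.1% to 72.7% (deleted). The labelled cell types were checked against their markers. In the control libraries the summed levels of 14 IM markers, in counts scaled to a common library size (CPM), were 23210 to 26340 in IM control and 2337 to 4731 in NCM control, and those of 14 NCM markers were 3940 to 4322 and 10161 to 16675. In the deleted libraries the IM markers summed to 13289 to 18511 in IM and 1596 to 1852 in NCM, and the NCM markers to 2489 to 3484 in IM and 4154 to 8831 in NCM. By single gene, 13 of 14 IM markers were higher and 11 of 14 NCM markers lower in IM control than in NCM control. The 3 NCM markers higher in IM control were Cx3cr1 (392 ± 66.2 against 219 ± 72.7 CPM, SD, n = 3), Csf1r and Ear2. Between the deleted groups these counts were 13 of 14 and 10 of 14. The 10 endothelial markers, all with counts in every group, summed to 654 to 2104 in NCM control and 2753 to 6604 in NCM deleted, with no overlap, and to 700 to 2153 and 749 to 2575 in the IM groups. Of 10 listed markers of red cells, 8 had rows, and Hbb-bt and Ahsp had none. These 8 were near 0: they summed to at most 31.2 CPM in any library, with Klf1 at 0 in every group. Hif1a itself, counted over the whole gene and so with no reading of the deleted part, was at 228 ± 15.6 and 199 ± 6.50 CPM in IM control and deleted and at 225 ± 19.6 and 172 ± 34.8 in NCM (SD, n = 3), and did not pass the test in either cell type (edgeR adjusted p = 0.938 and 0.407). In sorted cells measured in bulk, fewer cells of a type and less RNA per cell cannot be told apart. IM and NCM libraries were also run on different lanes (5 and 7 against 6 and 8, read from the file names), so lane and cell type cannot be told apart.

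All values below are CPM, scaled by the TMM method of edgeR, and all differences are log2 fold changes from edgeR's quasi-likelihood test on the counts of all 12 libraries, with Benjamini-Hochberg adjustment over 14254 genes and a threshold of 0.05. Errors on log2 fold changes are standard errors (SE), and intervals are 95% intervals.

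**Figure D1:**
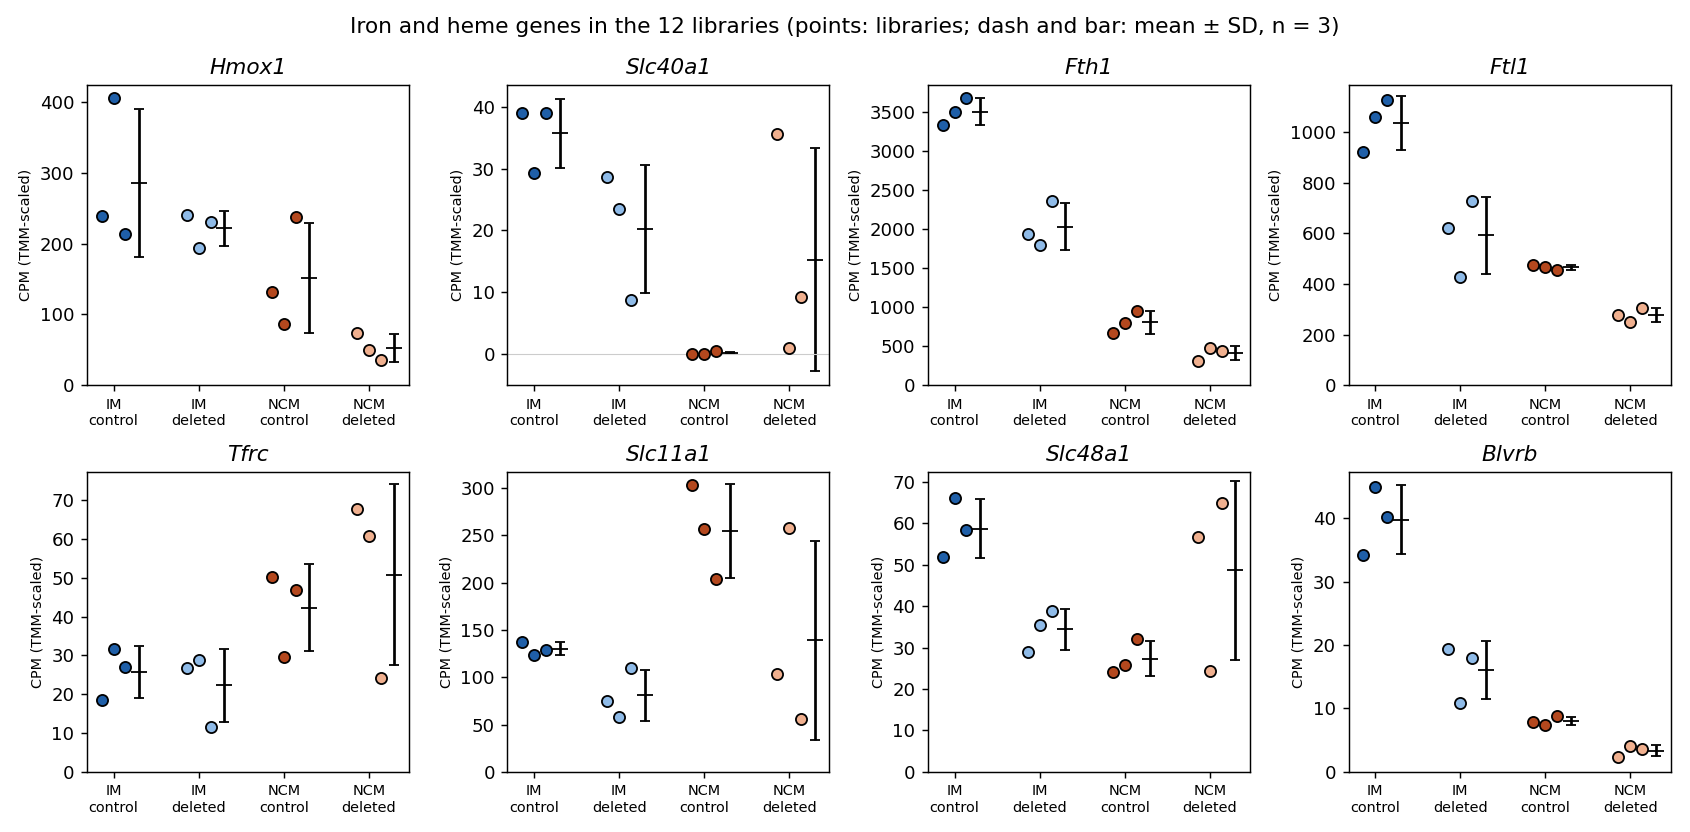
CPM (TMM-scaled, linear axes) of the 8 genes in each of the 12 libraries, with the mean and SD of 3 libraries beside the points. Fth1, Ftl1 and Blvrb step down from IM control through IM deleted to NCM control and NCM deleted, except that 1 IM deleted library lies below NCM control for Ftl1, and Slc40a1 is at or near 0 in the 3 NCM control libraries.

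Hmox1 (chr8:75093621-75100589, plus strand, GRCm38), the enzyme that opens heme, was at 194 CPM or more in all IM libraries and at 73.4 or less in NCM deleted. In IM it measured 239, 406 and 214 CPM in the control and 241, 194 and 231 in the deleted libraries. In NCM it measured 131, 86.7 and 238 CPM in the control and 73.4, 49.5 and 35.0 in the deleted libraries. The 2 IM groups overlapped and the NCM groups did not, although NCM659, a control, was as high as the IM libraries. From high to low, the group means were 286 ± 105 and 222 ± 24.6 CPM for IM (control, then deleted), then 152 ± 77.8 and 52.6 ± 19.4 for NCM (SD, n = 3). IM control overlapped with IM deleted, and IM deleted with NCM control. In NCM the difference between deleted and control was −1.53 ± 0.38 (interval −2.33 to −0.73), and its adjusted p of 0.0660 missed the threshold. In IM it was −0.37 ± 0.37 (interval −1.15 to 0.42, adjusted p = 0.919). The difference between these deletion effects was 1.16 ± 0.52 (interval 0.05 to 2.28) and did not pass either (adjusted p = 0.554). Between cell types, Hmox1 was 4.22-fold higher in IM deleted than in NCM deleted (log2 2.08 ± 0.38, adjusted p = 0.00413). Between the control groups the difference of 0.91 ± 0.37 did not pass (adjusted p = 0.168), and without NCM659 it did (1.40, adjusted p = 0.0443).

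Blvrb (chr7:27447978-27466144, plus strand), biliverdin reductase B, was at its highest in IM control and at its lowest in NCM deleted. IM libraries held 34.2, 45.0 and 40.2 CPM in the control group and 19.3, 10.8 and 18 in the deleted group. NCM libraries held 7.82, 7.46 and 8.73 CPM in the control group and 2.31, 4.11 and 3.64 in the deleted group. No library of any group overlapped with a library of another group, and the groups run from high to low in the order just given. The 3 NCM deleted libraries rest on 14, 28 and 41 counts. Blvrb was higher in IM than in NCM in both the control libraries (4.97-fold, log2 2.31 ± 0.58, adjusted p = 0.0223) and the deleted libraries (4.76-fold, log2 2.25 ± 0.58, adjusted p = 0.0368). The first of these calls was lost without any 1 of IM648, IM659, IM660, NCM648, NCM657 or NCM659 (adjusted p 0.0604 to 0.0985), and the second without any 1 of the 6 IM libraries or without NCM657 (adjusted p 0.0512 to 0.148), while the fold hardly moved (log2 2.26 to 2.41 and 2.05 to 2.47). Deleted against control, the difference was −1.31 ± 0.56 in IM (interval −2.50 to −0.12, adjusted p = 0.428) and −1.25 ± 0.57 in NCM (interval −2.46 to −0.04, adjusted p = 0.296), and neither passed.

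Slc48a1 (chr15:97778520-97792692, plus strand), the heme transporter, was lower in IM deleted and, by its mean, higher in NCM deleted than in the matching controls, without passing the test in either. It measured 51.9, 66.0 and 58.3 CPM in IM control and 29.0, 35.5 and 38.7 in IM deleted, with no overlap. In NCM control it measured 24.0, 25.8 and 32.1, and in NCM deleted 56.6, 24.2 and 65.0. NCM649 and NCM661 were thus at the level of IM control, and NCM650 was among the NCM control libraries. The difference between deleted and control was −0.77 ± 0.39 in IM (interval −1.61 to 0.06, adjusted p = 0.570) and 0.83 ± 0.39 in NCM (adjusted p = 0.314). The difference between these effects was −1.60 ± 0.56 (interval −2.79 to −0.42, adjusted p = 0.458). Between the control groups Slc48a1 was 1.10 ± 0.40 higher in IM with no overlap, and this missed the threshold (adjusted p = 0.112), though it passed without NCM650 (adjusted p = 0.0345). Exons of Hdac7 lie over Slc48a1 on the opposite strand, and the strand setting of the counting is not given in the sources used here, so reads of the pair cannot be told apart. Hdac7 measured 24.3, 21.4 and 49.6 CPM in the NCM controls and 62.9, 29.1 and 137 CPM after deletion, high in the same 2 NCM deleted libraries as Slc48a1. The endothelial markers summed to 3139, 2753 and 6604 CPM in NCM649, NCM650 and NCM661. The part of Hdac7 and of endothelial RNA in the Slc48a1 values was not tested.

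The ferritin chains were the most abundant of the 8 per kb of exon, and both were higher in IM than in NCM. Fth1 (chr19:9980598-9985098, plus strand) measured 3333, 3495 and 3674 CPM in IM control and 1939, 1787 and 2361 in IM deleted. In NCM the control libraries had 664, 792 and 947 CPM and the deleted libraries 314, 478 and 437. No library of one group overlapped with a library of another. The heavy chain was 4.37-fold higher in IM control than in NCM control (log2 2.13 ± 0.23, adjusted p = 0.000130) and 4.95-fold higher in IM deleted than in NCM deleted (log2 2.31 ± 0.24, adjusted p = 6.51e-05). In deleted against control libraries it was at −0.79 ± 0.23 in IM (interval −1.27 to −0.30, adjusted p = 0.164) and at −0.97 ± 0.23 in NCM (interval −1.45 to −0.48, adjusted p = 0.0570). The second of these crossed the threshold when NCM650 (−1.09, adjusted p = 0.0472) or NCM661 (−1.02, adjusted p = 0.0247) was left out. The difference between the 2 effects was 0.18 ± 0.32 (interval −0.50 to 0.86, adjusted p = 0.926).

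Ftl1 (chr7:45457944-45459884, minus strand), the light chain, measured 921, 1063 and 1128 CPM in IM control and 623, 427 and 727 in IM deleted. In NCM control it measured 476, 467 and 456, and in NCM deleted 279, 250 and 306. The library IM650 lay below all 3 NCM control libraries, and the deleted libraries lay below the control libraries in each cell type. The light chain was 2.22-fold higher in IM control than in NCM control (log2 1.15 ± 0.23, adjusted p = 0.00558) and 2.13-fold higher in IM deleted than in NCM deleted (log2 1.09 ± 0.23, adjusted p = 0.00998), the latter lost without IM661 (0.81, adjusted p = 0.116). Deleted against control, it was at −0.81 ± 0.23 in IM (interval −1.29 to −0.33, adjusted p = 0.152) and at −0.75 ± 0.23 in NCM (adjusted p = 0.121). Both ferritin genes have processed copies elsewhere in the mouse genome (RefSeq lists Fth-ps2, Fth-ps3, Ftl1-ps1 and Ftl1-ps2, among others), so reads that fit several places could have been lost or split, and their absolute levels are uncertain. On its own locus Ftl1 also overlaps Gm22133 on the same strand and Gm10252 on the other.

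The 2 chains did not keep 1 ratio. The ratio of Fth1 to Ftl1 counts, which does not depend on library size, was 3.62, 3.29 and 3.26 in IM control and 3.11, 4.18 and 3.25 in IM deleted. It was 1.39, 1.70 and 2.08 for the NCM controls and 1.13, 1.92 and 1.43 for NCM deleted. All 6 IM libraries lay above all 6 NCM libraries. The group means were 3.39 ± 0.201 and 3.51 ± 0.583 in IM control and deleted and 1.72 ± 0.342 and 1.49 ± 0.398 in NCM (SD, n = 3), so that within each cell type control and deleted libraries overlapped. The share of heavy chain counts within ferritin thus divided the IM libraries from the NCM libraries, which were also run on different lanes. Reads lost or split between processed copies could alter this ratio, and their part was not tested.

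**Figure D2:**
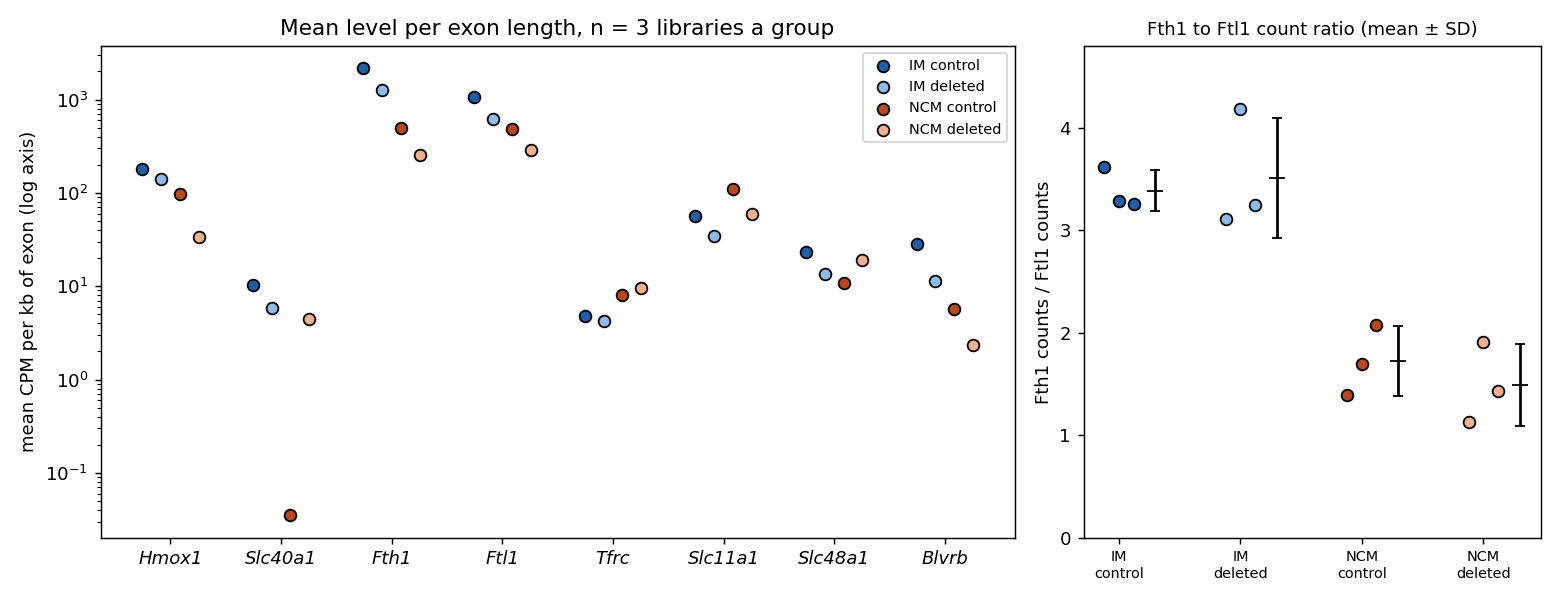
Left, mean CPM per kb of exon (log axis) of each gene in the 4 groups, 3 libraries a group. Right, the Fth1 to Ftl1 count ratio in each library with mean and SD, which lies between 3.11 and 4.18 in IM and between 1.13 and 2.08 in NCM.

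Per kb of exon, which allows genes to be compared, the mean level in IM control ran from 2164 CPM per kb for Fth1 and 1072 for Ftl1 through 182 for Hmox1, 56.0 for Slc11a1, 28.2 for Blvrb, 23.2 for Slc48a1 and 10.3 for Slc40a1 to 4.84 for Tfrc. In NCM control the ferritin chains stood nearly level on this scale, at 495 for Fth1 and 482 for Ftl1. Slc11a1 (110) stood beside Hmox1 (96.8) there, and Slc40a1 was last at 0.0350. In NCM deleted Slc11a1 stood at 59.9 CPM per kb and Hmox1 at 33.5, and Slc40a1 (4.40) lay above Blvrb (2.37).

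Slc40a1 (chr1:45908068-45926523, minus strand), the iron exporter, was the 1 member of the 8 that passed the test between deleted and control libraries, in NCM. It measured 39.0, 29.2 and 39.0 CPM in IM control and 28.7, 23.4 and 8.66 in IM deleted. NCM controls had 0, 0 and 0.364 CPM, and NCM deleted libraries 35.6, 0.882 and 9.23. The counts behind the NCM values were 0, 0 and 3 (control) against 216, 6 and 104 (deleted). A count of 0 allows up to 3 counts, or 0.443 CPM in NCM648 and 0.367 CPM in NCM657, for counting error only. Every NCM deleted library thus lay above every NCM control library, but the 3 deleted libraries ranged over 0.882 to 35.6 CPM, from close to the control level to the level of IM control. The fitted log2 fold change was 6.76 ± 1.36 (interval 3.87 to 9.65, adjusted p = 0.0439). Over the pooled counts (326 against 3) the ratio was 104, with an exact interval of 35.4 to 509 that covers counting error only, not the spread between libraries. The call was lost without any 1 of IM648, IM659, IM660, IM649, IM650, NCM648, NCM657 or NCM649 (adjusted p 0.0535 to 0.165). All 12 libraries share 1 estimate of the spread in this fit. Without NCM649, which held 216 of the 326 counts, the log2 fold change was 5.19. Without NCM659, which held the 3 control counts, it was 10.14, a fitted value that depends on the prior count and is no bound.

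Slc40a1 also marked IM off from NCM in control mice: 1418 counts against 3, a pooled ratio of 276 (exact interval 94.2 to 1339, counting error only) and a fitted log2 fold change of 7.99 ± 1.41 (interval 5.00 to 10.99, adjusted p = 0.00284), which ran from 7.44 to 11.37 as each library was left out in turn and passed each time. Between the deleted groups the difference was 0.41 ± 0.97 and did not pass (adjusted p = 0.899). In IM, deleted libraries lay below control libraries with a difference of −0.82 ± 0.97 that did not pass (interval −2.88 to 1.24, adjusted p = 0.961). The difference between the deletion effects was −7.58 ± 1.66 and did not pass after adjustment over all genes (adjusted p = 0.310). These comparisons share the same NCM control libraries, which hold 3 counts in all. The 14 IM markers summed to 1596 to 1852 CPM in NCM deleted and to 2337 to 4731 CPM in NCM control. The endothelial markers summed to 3139, 2753 and 6604 CPM in NCM649, NCM650 and NCM661, in which Slc40a1 was at 35.6, 0.882 and 9.23 CPM. The part of IM RNA and of endothelial RNA in the Slc40a1 values was not tested.

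**Figure D3:**
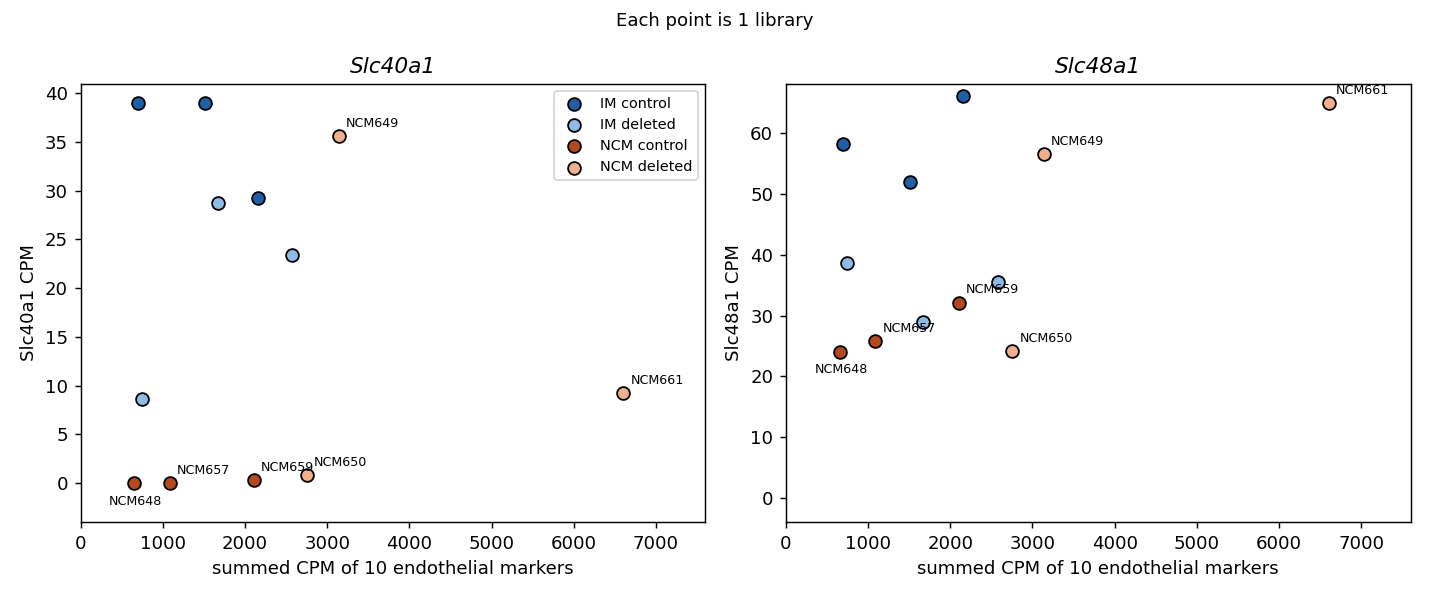
CPM of Slc40a1 (left) and Slc48a1 (right) against the summed CPM of 10 endothelial markers, 1 point a library, NCM libraries named. NCM649 and NCM661 are high in Slc48a1, and for Slc40a1 NCM661 lies at 9.23 CPM with the highest endothelial sum and NCM649 at 35.6.

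The transferrin receptor gene Tfrc and the metal transporter gene Slc11a1 had higher means in NCM control than in IM control, and neither passed the test. Tfrc (chr16:32608920-32632794, plus strand) measured 18.4, 31.7 and 27 CPM in IM control and 26.7, 28.7 and 11.5 in IM deleted. The NCM values were 50.3, 29.5 and 46.9 CPM with Hif1α intact and 67.6, 60.7 and 24.1 with it deleted. All 4 groups overlapped with their neighbours in the order of the means. The differences between deleted and control were −0.21 ± 0.49 in IM (interval −1.24 to 0.83, adjusted p = 0.999) and 0.27 ± 0.48 in NCM (interval −0.77 to 1.30, adjusted p = 0.836). Against NCM, IM stood at −0.72 ± 0.49 in control (adjusted p = 0.481) and −1.19 ± 0.49 in deleted libraries (adjusted p = 0.239), and the latter passed without NCM661 (−1.53, adjusted p = 0.0484).

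Slc11a1 (chr1:74375195-74386062, plus strand), the phagosomal metal transporter, measured 137, 124 and 129 CPM in IM control and 74.5, 57.8 and 110 in IM deleted. For NCM the controls had 303, 257 and 204 CPM and the deleted libraries 103, 258 and 56.3. IM deleted lay below IM control, and NCM control lay above IM control, each with no overlap. In NCM deleted 2 libraries were low and NCM650 was at the control level, the same library that was at the control level for Slc48a1. The differences were −0.69 ± 0.42 in IM (interval −1.58 to 0.21, adjusted p = 0.697) and −0.87 ± 0.42 in NCM (adjusted p = 0.321), the second of which was at −1.68 without NCM650 (adjusted p = 0.0341, past the threshold) and at −0.50 without NCM661 (adjusted p = 0.411). IM control against NCM control was at −0.97 ± 0.42 (adjusted p = 0.204), and IM deleted against NCM deleted at −0.78 ± 0.42 (adjusted p = 0.411), which passed without NCM661 (−1.16, adjusted p = 0.0463).

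**Figure D4:**
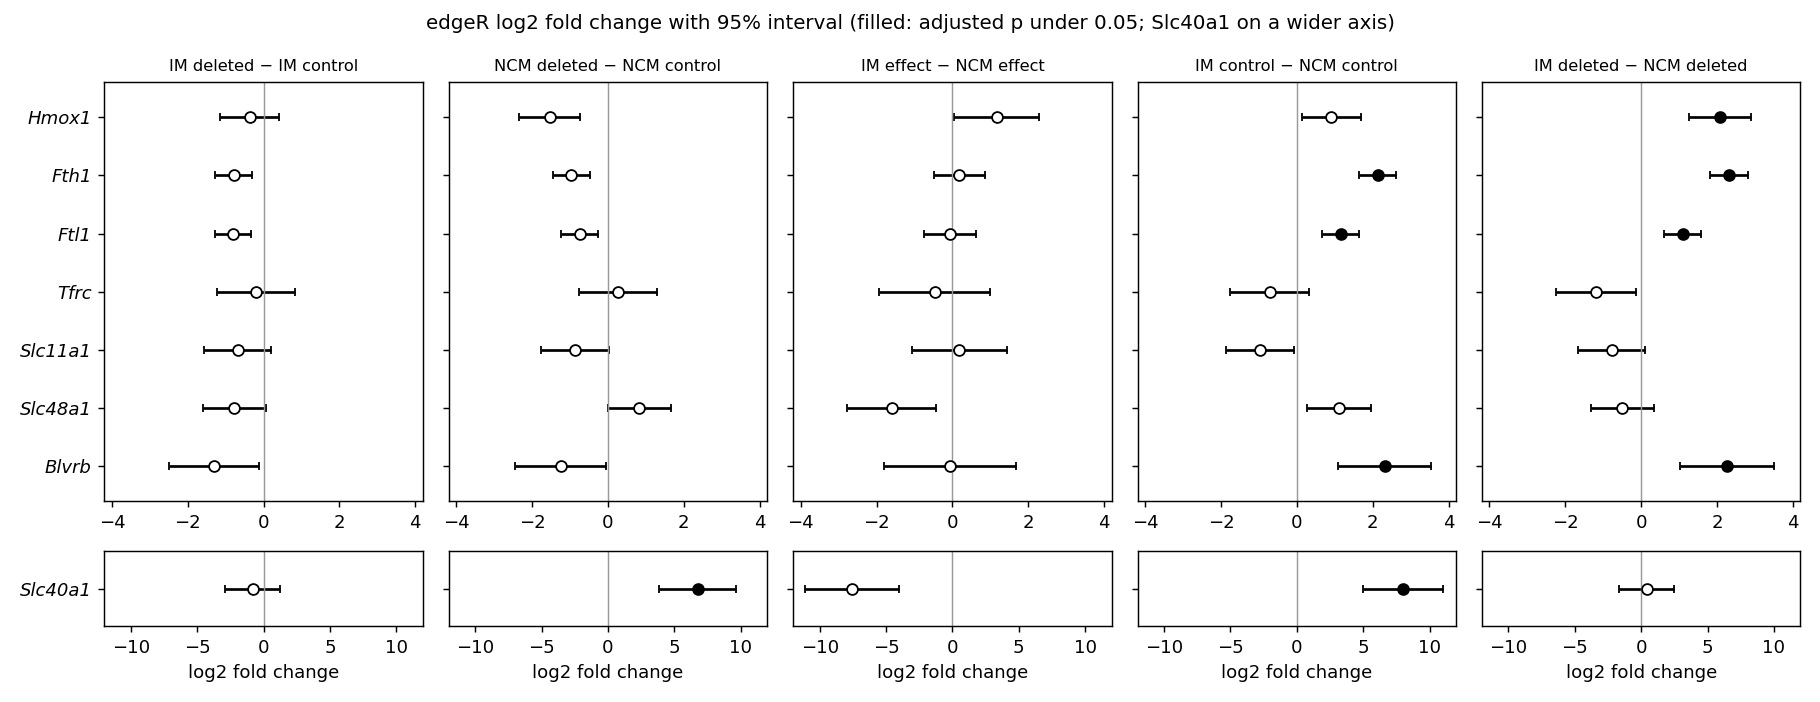
edgeR log2 fold change of each gene with its 95% interval in the 5 comparisons, filled where the adjusted p is under 0.05, with Slc40a1 on a wider axis below. All 8 points lie below 0 for IM deleted against IM control and none is filled, 1 is filled for NCM, and 4 are filled in each comparison of the cell types.

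Counted over the 8 genes, deletion in IM gave no call in either direction by edgeR, against 0.288% of all genes tested (0.239% higher and 0.0491% lower), with 3 at an unadjusted p under 0.05 (Fth1, Ftl1 and Blvrb) against 9.84% of all genes. DESeq2 called 2 of the 8 (Fth1 and Ftl1), beside 2.62% of all genes. All 8 fold changes were below 0, with a median of −0.78, although Slc48a1 was at 0.038 with the share of reads outside exons in the fit and Tfrc at 0.055 without IM661. In the 19 alternative fits described below, Fth1 ran from −0.96 to −0.33 and Ftl1 from −1.03 to −0.39. Over all genes the median was 0.07 and 46.8% were below 0. In 6 of the 8 all deleted libraries lay below all control libraries, an arrangement that 13.4% of all genes showed. Within lanes, where 1 group is down to 1 library, the difference had the same sign in both lanes for 7 of the 8 genes, and Tfrc changed sign (−0.03 and 0.05). Over the same libraries the IM markers had a median of −0.67, with 12 of 14 below 0, and the alveolar macrophage markers a median of −0.50, with 10 of 10 below 0 and sums of 1547 to 1717 CPM in IM control and 498 to 1494 in IM deleted. The NCM markers had a median of −0.50, with 12 of 14 below 0, and the classical monocyte markers −0.32, with 5 of 7 below 0. The endothelial markers had a median of 0.05, with 5 of 10 below 0. The share of reads outside exons also divided these groups without overlap. The part of each in the lower values was not tested.

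Deletion in NCM gave 1 call of 8, Slc40a1, against 0.421% of all genes (0.0842% higher and 0.337% lower), and 5 at an unadjusted p under 0.05 (Hmox1, Slc40a1, Fth1, Ftl1 and Blvrb) against 16.1%. DESeq2 called 3 (Hmox1, Slc40a1 and Fth1), beside 6.69% of all genes. Of the 8 fold changes 5 were below 0, with a median of −0.81, beside −0.10 and 54.1% for all genes. With DESeq2's size factors in edgeR the median over all genes moved to 0.04, that of the 8 genes to −0.67, and the calls over all genes from 12 higher and 48 lower to 28 and 31, with no change of direction in the 8 genes. All deleted libraries lay below all control libraries in 4 genes (Hmox1, Fth1, Ftl1 and Blvrb), against 11.4% of all genes, and above them in 1, against 5.9%. Within lanes the sign was the same in both lanes for Hmox1, Fth1, Ftl1 and Blvrb, and it changed for Slc11a1 (0.16 and −1.93), Slc48a1 (−0.26 and 1.34) and Tfrc (0.67 and −0.13). Slc40a1 was at 2.28 in lane 6, and in lane 8 its control library was at 0. The IM markers had a median of −1.29 in this comparison, with 13 of 14 below 0, and the NCM markers a median of −0.94, with 14 of 14 below 0. The endothelial markers had a median of 1.78, with 10 of 10 above 0. Their part in the values of the 8 genes was not tested beyond the values given here. The difference between the deletion effects gave no call, by edgeR, in the 8 genes or in all genes (0%). At an unadjusted p under 0.05 it gave 3 of the 8 (Hmox1, Slc40a1 and Slc48a1), against 8.92% of all genes, and DESeq2 called 1 (Slc40a1), beside 0.435% of all genes.

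The cell types differed more. In control mice 4 of the 8 genes were higher in IM (Slc40a1, Fth1, Ftl1 and Blvrb) and none was lower, against 7.48% of all genes (2.81% higher and 4.67% lower). The median was 1.13, beside 0.06 for all genes, and 7 had an unadjusted p under 0.05, against 20.1%. All IM control libraries lay above all NCM control libraries in 5 (the 4 called and Slc48a1), against 18.6% of all genes, and below them in 1 (Slc11a1), against 17.2%. DESeq2 called 5 (the same 4 and Slc48a1), beside 12.4% of all genes. In deleted mice 4 were higher (Hmox1, Fth1, Ftl1 and Blvrb) and none lower, against 4.57% of all genes (3.22% higher and 1.35% lower), with a median of 0.75 beside 0.14, and 5 had an unadjusted p under 0.05 against 15.4%. All IM deleted libraries lay above all NCM deleted libraries in these 4, against 16% of all genes, and below them in none, against 6.25%. DESeq2 called the same 4, beside 8.62% of all genes. The alveolar macrophage markers were also higher in IM than in NCM. Their median was 3.54 between the control groups and 2.25 between the deleted groups, with 9 of 10 above 0 in each. The IM markers had medians of 3.07 and 3.44, with 13 of 14 above 0 in each. The part of alveolar macrophage RNA in the values of the 8 genes was not tested. With the share of reads outside exons in the fit, 1 of the 4 control calls was left (Fth1, log2 1.74). Slc40a1 was at 9.12 ± 2.07, Ftl1 at 0.79 ± 0.32 and Blvrb at 1.89 ± 0.97 in that fit, with larger standard errors than without the covariate, and over all genes there were 28 calls (0.196%) in place of 1066. The deletion comparisons and the cell type comparisons use the same libraries, so their counts are not independent.

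The other genes of the pathway were read from 5 lists of 67 genes, of which 61 passed the filter. In neither cell type did deletion give a call in any list: 0 of 61 in IM, against 0.288% of all genes, and 0 of 61 in NCM, against 0.421%. At an unadjusted p under 0.05 there were 6 in IM, against 9.84% of all genes, and 17 in NCM, against 16.1% of all genes. The median log2 fold changes were −0.10 in IM and −0.28 in NCM, beside 0.07 and −0.10 for all genes. Between IM control and NCM control 6 of 61 were higher and 1 lower (median 0.61), against 2.81% and 4.67% of all genes (median 0.06). Between the deleted groups 7 were higher and 1 lower (median 0.55), against 3.22% and 1.35% (median 0.14).

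In iron uptake and transport (17 tested), Trf, which encodes the plasma iron carrier transferrin, measured 793 ± 76.9, 481 ± 81.0, 147 ± 72.8 and 68.6 ± 47.3 CPM in the IM groups (control, deleted) and then the NCM groups, the order kept below (SD, n = 3 each). It was higher in IM in control (log2 2.43, adjusted p = 0.0112) and in deleted libraries (2.81, adjusted p = 0.00651). Slc11a2, the endosomal iron transporter DMT1, was higher in IM deleted than in NCM deleted (3.83, adjusted p = 0.00219). Steap4, a metal reductase, was higher in IM control (7.14, adjusted p = 0.0496) against NCM control libraries that held 1 count between them. In storage and sensing (14 tested), Ncoa4, the receptor that delivers ferritin to lysosomes, was higher in IM in control (1.75, adjusted p = 0.00227) and deleted libraries (1.20, adjusted p = 0.0277), at 186 ± 33.7, 113 ± 23.4, 55.3 ± 5.59 and 49.2 ± 16.5 CPM in the 4 groups. Ncoa4 thus stood in the same group order as Fth1. Maf, a transcription factor of macrophages, was higher in IM in both (log2 3.07 in control, adjusted p = 0.0115, and 3.09 in deleted libraries, adjusted p = 0.0152).

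In heme uptake and breakdown (9 tested), Hmox2, the constitutive heme oxygenase, passed between the deleted groups (1.27, adjusted p = 0.0329). Its levels were 87.3 ± 6.97, 52.7 ± 7.18, 57.2 ± 9.44 and 21.9 ± 5.73 CPM in the 4 groups. Heme synthesis (11 tested) gave no call in any comparison by edgeR, with 1 gene at an unadjusted p under 0.05 in IM control against NCM control, 1 in the difference of the deletion effects and 0 in the other comparisons. Its gene with the highest mean CPM, Alas1, the first enzyme of the path, measured 113 ± 16.6, 77.0 ± 19.6, 56.1 ± 8.33 and 77.7 ± 26.6 CPM. Of 10 other NRF2 targets, 7 were above 0 and 3 below 0 in IM control against NCM control (median 0.75). Between the deleted groups 4 were above 0 and 6 below 0 (median −0.37). Gsr, glutathione reductase, was the 1 called lower in IM, at 44.7 ± 2.82 and 37.7 ± 4.29 CPM against 401 ± 80.6 and 222 ± 96.8 in NCM (log2 −3.17, adjusted p = 0.000116 in control, and −2.56, adjusted p = 0.000309 in deleted libraries). Prdx1, a peroxidase, was higher in IM control (1.13, adjusted p = 0.0227), and Slc7a11, the cystine importer, was higher in IM deleted (3.11, adjusted p = 0.0299).

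**Figure D5:**
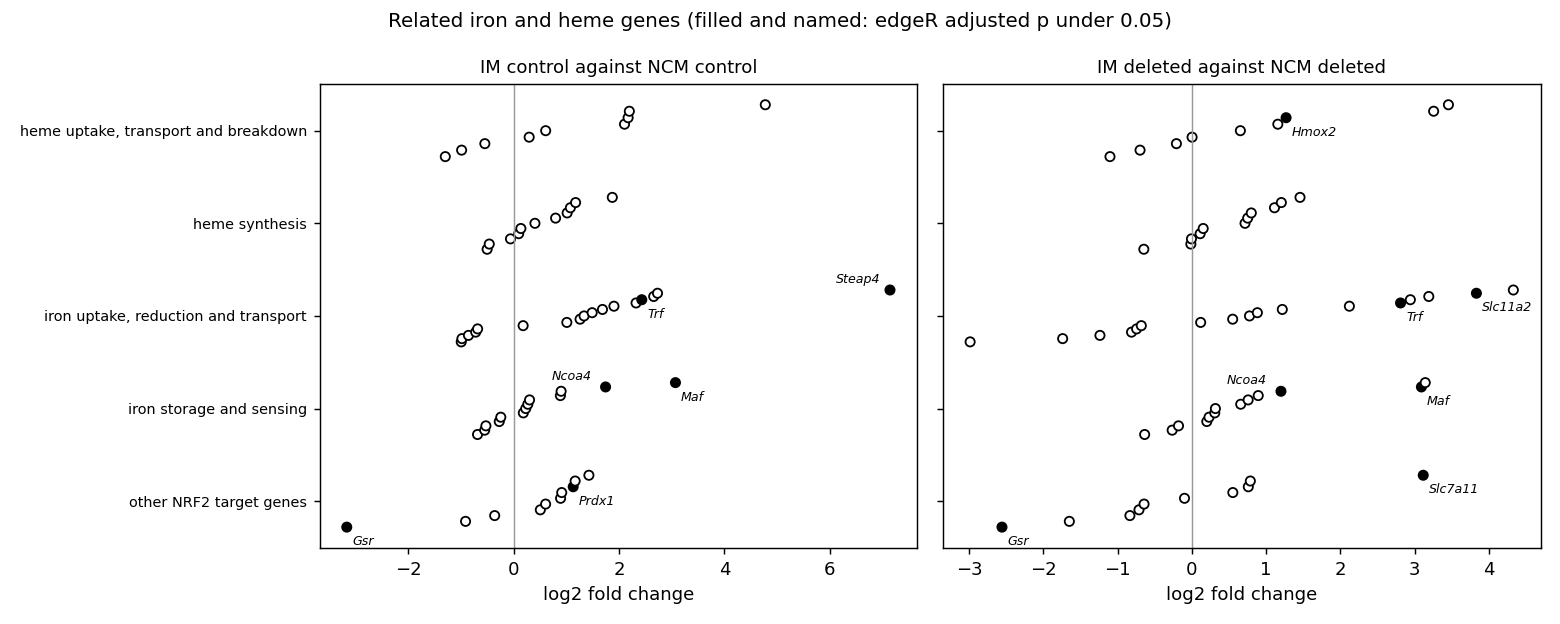
Log2 fold changes (IM over NCM) of the related genes in 5 lists, 1 point a gene, for control libraries (left) and deleted libraries (right), filled and named where the edgeR adjusted p is under 0.05. Filled points lie to the right of 0 except Gsr, and the heme synthesis list has none.

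The 12 libraries were also used to find the genes whose levels moved most like each of the 8, by the root mean square difference of log2 CPM after each gene's mean was removed, against 4335 genes: those whose mean log2 CPM reached 5, without clone-like, mitochondrial and small RNA symbols, and the other 7 of the 8 at any level. Among the 8 genes the closest pair was Fth1 and Blvrb (0.28), ahead of Hmox1 and Ftl1 (0.60) and of the 2 ferritin chains (0.61), and the farthest was Slc40a1 and Slc11a1 (3.52). For Fth1 the nearest were Snx5 (0.24), Mpeg1 (0.25) and Blvrb. For Ftl1 they were Glt25d1 (0.22), Vwa5a (0.23) and Zfp36 (0.23), and for Blvrb, after Fth1, Mpeg1 (0.33) and Cebpa (0.36). Hmox1 was nearest to Zfand2a (0.33), Sgpl1 (0.37) and Tlr2 (0.41). Slc11a1 was nearest to Ptpn6, Naip2 and Bin3 (0.27 to 0.29), Slc48a1 to Tmem109, Cbx3 and Adam15 (0.28 each), and Tfrc to Slc4a1ap, Kcnj2 and Ikzf5 (0.30 to 0.36). Slc40a1 had no near neighbour among the genes compared: its closest were Cttnbp2nl (1.53), Tmem176a (1.69) and Cacna1d (1.77). The cut on mean level leaves out most genes that, like Slc40a1, are near 0 in a whole group. A nearer gene below the cut could thus have been missed. These distances describe 12 libraries that share 2 cell types and 4 groups, and no test was made of them.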

How the data were processed

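RNA of about 250 sorted cells per sample was turned into stranded libraries with the SMARTer Pico kit, per the labels' protocols. The authors deposited whole-number HTSeq counts per gene symbol, 1 table per sample; cutadapt 1.12, TopHat2 2.1.1, HTSeq 0.6.0 and the build GRCm38 (mm10) are named in the submitters' processing notes. Annotation, strand setting and the treatment of multiply mapped reads were not given in the sources used here. At the end of each table stood 5 summary rows, which (45.0% to 74.1% of all reads, with 4.44% to 9.02% not unique) were kept out of library sizes and tests. Lane numbers were read from the file names.

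Counts were scaled by TMM and filtered with filterByExpr (minimum count 10), and 4 group means were fitted to all 12 libraries with edgeR 4.0.16 (R 4.3.3; robust quasi-likelihood fit), which gave 5 contrasts, adjusted over 14254 genes. Groups came from the titles. SE was the log2 fold change divided by the square root of F, and intervals used the fit's degrees of freedom. Alternatives were DESeq2 1.42.0, limma 3.58.1 (voom), other size factors, no filter, 2 covariates, fewer groups, replicate blocks and leaving out each library. Exon lengths merge the exons of protein-coding transcripts of GENCODE M21 (GRCm38). All 8 genes were named, and a related gene was named where it passed the test in any comparison, or where its list had none, the one with the highest mean CPM. Genes, lists and rules were chosen with earlier results of these data known. Of the listed symbols, 8 were found under older names (such as Mfsd7b for Flvcr1) and 3 had no match. Of the related genes that passed, 1 is in the counts of its list but is not reported by name here or plotted.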

Additional observations from a re-analysis of the deposited data

How the results depend on the processing

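The number of the 8 genes past the threshold depended on the tool. For IM deleted against IM control it was 0, with 2 by DESeq2 (Fth1 and Ftl1), 3 with only the compared groups in the fit (Fth1, Ftl1 and Blvrb), 2 by limma voom with the replicate number as a random block (Fth1 and Ftl1), and 0 whichever library was left out. For NCM deleted against NCM control it was 1, with 3 by DESeq2 (Hmox1, Slc40a1 and Fth1), 2 without the filter (Hmox1 and Slc40a1), 0 with the lane pair as a covariate, 2 with the share of reads outside exons as a covariate (Slc40a1 and Fth1), 0 with only the compared groups, and 0 to 3 when 1 library was left out. Under the random replicate block Fth1 was the 1 called in NCM (adjusted p = 0.0281) and Slc40a1 was not (adjusted p = 0.0711). For the difference of the deletion effects the count was 0, 1 by DESeq2 (Slc40a1) and 0 in each left-out fit. For IM control against NCM control it was 4, with 1 under the covariate for reads outside exons (Fth1), 2 with the replicate block in edgeR (Slc40a1 and Fth1), 6 with only the compared groups (the 4 called, Slc11a1 and Slc48a1) and 3 to 5 with 1 library left out. For IM deleted against NCM deleted it was 4, with 2 with only the compared groups (Hmox1 and Fth1), 2 with the replicate block (Hmox1 and Fth1) and 2 to 6 with 1 library left out, 2 without IM661 and 6 without NCM661, where all genes called also went from 4.57% to 12.2%. The cause of these shifts was not tested.

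Fth1 in both comparisons of the cell types and Hmox1 in IM deleted against NCM deleted were called under all 20 alternatives. Over single genes, 696 values kept direction and side of the threshold, 23 crossed into it, 38 left it and 19 changed sign. With the covariate for reads outside exons, the sign changed for Slc48a1 in IM (0.038), Tfrc in NCM (−0.23), Tfrc in IM control against NCM control (0.76), and the difference of effects of Ftl1 (0.27), Slc11a1 (−0.51) and Blvrb (0.32). With 1 library left out, signs changed for the difference of effects of Slc11a1 (−0.26 to 0.99), Ftl1 (−0.39 to 0.13), Blvrb (−0.30 to 0.16) and Fth1 (−0.10 to 0.31), for Tfrc in IM (−0.43 to 0.055), and for Slc40a1 (−0.14 to 1.98) and Slc11a1 (−1.17 to 0.020) in IM deleted against NCM deleted.

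Over all genes, calls in the 2 deletion comparisons were 41 (IM) and 60 (NCM), with 373 and 953 by DESeq2, 77 and 153 without the filter, 0 and 17 with the lane pair, 0 and 351 with reads outside exons, 902 and 0 with only the compared groups, and 181 and 196 under the random block. With 1 library left out they ran from 0 (without IM648, IM659, IM660, NCM657 or NCM659) to 235 (without NCM661) in IM and from 4 (without IM659 or NCM657) to 585 (without NCM661) in NCM. For the cell types they were 1066 (control) and 652 (deleted), with 1768 and 1228 by DESeq2, 1975 and 261 with only the compared groups, 28 and 907 with reads outside exons, 289 and 397 with the replicate block, and 514 to 1589 and 347 to 1746 with 1 library left out. IM and NCM libraries of the same number did not deviate together (correlations −0.07 to 0.08, consensus −0.01, own partner best for 3 of 5), so the numbers were not taken as pairs. The planned addition of ferritin pseudogene rows was not run because no such rows were found in the tables used here, and the difference of effects needs all groups. Blvrb in NCM deleted rests on 14 to 41 counts a library, and Slc40a1 in NCM control on 3 in all.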

Other observations

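Slc11a2, the endosomal iron transporter, was picked after its values were seen. It lay higher in IM deleted (94.1 ± 24.1 CPM) than in IM control (45.8 ± 15.7) and lower in NCM deleted (6.52 ± 5.86) than in NCM control (18.1 ± 4.70; SD, n = 3 each), with no overlap in either cell type. Of all genes, 16.2% lay above without overlap in IM, and 11.4% lay below without overlap in NCM. The log2 fold changes were 1.04 ± 0.58 in IM (edgeR adjusted p = 0.641) and −1.45 ± 0.60 in NCM (adjusted p = 0.244), and the difference between them was 2.49 ± 0.83 (interval 0.72 to 4.26, adjusted p = 0.455). None of the 3 passed the test. In IM, Slc11a2 thus stood the other way from the 8 iron and heme genes, all of which had a log2 fold change below 0 there. It was not alone in this: 10 of the 17 tested genes of its list were above 0 in IM (median 0.17).

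Hmox2 and Prdx1, also picked after their values were seen, had adjusted p-values above the threshold. Hmox2 was at −1.39 ± 0.32 in NCM (adjusted p = 0.0570) and −0.73 ± 0.32 in IM (adjusted p = 0.442). Prdx1 was at −1.09 ± 0.28 in IM, from 187 ± 28.3 to 88.2 ± 2.79 CPM (adjusted p = 0.128), and at −0.51 ± 0.28 in NCM (adjusted p = 0.402).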
